A study of Mus musculus with 12 samples.

Results

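The ADAM genes encode membrane proteins with a metalloprotease-like and a disintegrin domain, and they were followed here across Sertoli cell and germ cell fractions of testes from mice labelled TAp73 knockout and mice labelled wildtype. All probes whose accession maps in RefSeq to a symbol made of Adam and a digit were taken, which gave 46 of 39429 probes and 34 of 19751 named genes. The arrays are 1-colour Agilent mouse expression arrays, 12 in all, with 1 array per fraction and mouse. The knockout germ and knockout Sertoli groups came from the same 3 male C57BL/6J mice, 120 (4 months old), 86 and 72 (both 8 months old). The control germ and control Sertoli groups came from male C57BL/6J mice 99 (5 months old), 73 and 74 (both 8 months old), named wildtype in the source label of each array. The sample titles call mouse 99 WT, but mice 73 and 74 het, so the controls may hold 2 genotypes. TAp73 is the isoform class of the p53 relative Trp73 that carries the transactivation domain. Which exons were deleted, and in which cells, is not given in the sources used here. The question addressed is which ADAM genes differ between the fractions and between knockout and control mice, in a study whose title concerns germ cell adhesion and maturation. Values are log2 signals relative to the 75th percentile of the same array, and wherever array values are listed they follow the mice 120, 86 and 72 for knockout and 99, 73 and 74 for control.

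ADAM proteins fall into groups by role. In the mouse, sperm members such as Adam1b, Adam2 and Adam3 are made in spermatogenic cells and form complexes on the sperm surface. Some sperm members, Adam2 and Adam3 among them, take part in passage into the oviduct and binding to the egg coat. Most somatic members with an intact zinc-binding motif are sheddases, which cut the outer part off membrane proteins, as Adam10 does with Notch receptors and Adam17 with tumour necrosis factor. Adam11, Adam22 and Adam23 lack that motif and act as adhesion receptors, with secreted LGI proteins as ligands. Of the 34 genes, 22 were placed in the sperm and testis group, 9 in the somatic group with the motif and 3 in the somatic group without it.

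The labels were only partly borne out by the arrays. Trp73, the targeted gene, has 3 probes, all well above background on every knockout array, and where they lie relative to the deletion is not given in the sources used here. Probe A_52_P193555 lay at -2.76, -2.56 and -3.29 in knockout germ cells, against -9.40, -3.63 and -4.15 in control germ cells. It lay at -2.04, -1.52 and -1.70 in knockout Sertoli fractions, against -9.42, -2.50 and -3.22 in control Sertoli fractions. The arrays labelled WT, those of mouse 99, were thus the only ones not above background on this probe, and on none of the 3 probes was the knockout mean below the control mean in either fraction. The direction of every knockout difference below therefore rests on the labels alone, and results that pass a threshold are also given without mouse 99. Mouse 99 differed from the other controls in title, age and slide at once, so fits with and without it cannot tell these apart. The fraction label was borne out by some Sertoli cell markers and not by others. Of the 9 tested, 2 rose and 5 fell in the Sertoli fraction of knockout mice and 4 rose and 5 fell in that of control mice. Inhbb and Gata4 rose in both genotypes and Sox9 and Wt1 in control mice, while Rhox5, Fshr, Dhh, Clu and Cldn11 fell in both. The mean level of the 9 genes ranged from -0.24 to -0.02 in knockout and from -0.60 to -0.13 in control Sertoli fractions, against 0.71 to 1.35 in knockout and 0.20 to 0.64 in control germ fractions. Fshr, the receptor for follicle-stimulating hormone, was not well above background on any Sertoli fraction array. Fibroblast markers (6 genes) ranged from 4.07 to 4.59 in knockout and from 4.16 to 4.89 in control Sertoli fractions, against -2.26 to -1.87 in knockout and -2.95 to -2.58 in control germ fractions. Markers of peritubular myoid cells (5 genes) ranged from 3.75 to 4.55 and from 4.36 to 4.95 in knockout and control Sertoli fractions, against -1.02 to -0.23 and -1.75 to -0.60 in knockout and control germ fractions. The words Sertoli fraction, germ fraction and germ cells therefore stand for the labels only, and both fractions held markers of other cells. The array's 75th percentile signal ranged from 1355 to 5350 units, lowest in the Sertoli fraction of control mouse 74, and 64.1 to 78.9% of probes were well above background.

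Promoter windows of 300 bases, from 250 bases before to 50 bases after the annotated start, were found in RefSeq for 18 of the 34 genes (20 windows, build GRCm38.p6). The windows of the 11 sperm and testis genes found held 0 to 4 CG dinucleotides. Those of Adam22 and Adam23 held 19 and 31, and the 5 somatic genes with the motif ranged from 5 to 32. Over all 32851 windows the median was 7 (quartiles 3 and 20), with 38% of windows at 4 or fewer and 28.1% at 19 or more. The letters GGGCGG occurred on either strand in 5 of the 20 ADAM windows, all of somatic genes, against 35.7% of all windows. TATAAA occurred in 4, all of sperm and testis genes, against 13.6% of all windows, and TGACGTCA in none, against 1.79%. A p53 half-site, the kind of sequence that p53 family proteins bind, was found in 1 ADAM window, that of Adam21, against 8.36% of all windows. The windows given here are those of Adam23, the gene that differed between knockout and control germ cells, of Adam10, another CG-rich somatic gene, and of the sperm genes Adam1b, Adam20 and Adam25. CG dinucleotides are in capitals, and each runs 5′ to 3′ on the gene's own strand.
Adam23 (chr1:63445641-63445940, plus strand): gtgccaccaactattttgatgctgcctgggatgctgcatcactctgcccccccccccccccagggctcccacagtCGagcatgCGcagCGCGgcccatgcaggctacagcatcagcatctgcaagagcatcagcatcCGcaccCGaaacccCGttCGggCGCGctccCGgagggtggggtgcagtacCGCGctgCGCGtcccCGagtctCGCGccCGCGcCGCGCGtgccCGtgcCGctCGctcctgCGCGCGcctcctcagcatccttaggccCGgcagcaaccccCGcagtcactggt
Adam10 (chr9:70678732-70679031, plus strand): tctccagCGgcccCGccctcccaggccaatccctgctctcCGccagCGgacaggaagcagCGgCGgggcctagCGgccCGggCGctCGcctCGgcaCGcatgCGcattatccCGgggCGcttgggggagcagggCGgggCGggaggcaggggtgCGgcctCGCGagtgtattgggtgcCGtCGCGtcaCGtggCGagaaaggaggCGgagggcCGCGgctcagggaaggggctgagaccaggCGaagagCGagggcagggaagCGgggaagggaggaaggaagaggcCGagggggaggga
Adam1b (chr5:121503386-121503685, minus strand): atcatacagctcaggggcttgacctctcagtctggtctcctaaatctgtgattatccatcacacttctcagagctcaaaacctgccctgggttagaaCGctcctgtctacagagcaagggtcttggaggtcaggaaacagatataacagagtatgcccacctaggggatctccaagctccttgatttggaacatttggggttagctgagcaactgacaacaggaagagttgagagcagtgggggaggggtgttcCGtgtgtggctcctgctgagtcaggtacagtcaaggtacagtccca
Adam20 (chr8:40793023-40793322, plus strand): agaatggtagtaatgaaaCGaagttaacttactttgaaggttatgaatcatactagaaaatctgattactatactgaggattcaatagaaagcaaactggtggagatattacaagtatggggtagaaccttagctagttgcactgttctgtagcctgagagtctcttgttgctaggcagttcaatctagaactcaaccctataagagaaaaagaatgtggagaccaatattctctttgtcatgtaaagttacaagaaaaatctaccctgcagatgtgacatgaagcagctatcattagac
Adam25 (chr8:40751958-40752257, plus strand): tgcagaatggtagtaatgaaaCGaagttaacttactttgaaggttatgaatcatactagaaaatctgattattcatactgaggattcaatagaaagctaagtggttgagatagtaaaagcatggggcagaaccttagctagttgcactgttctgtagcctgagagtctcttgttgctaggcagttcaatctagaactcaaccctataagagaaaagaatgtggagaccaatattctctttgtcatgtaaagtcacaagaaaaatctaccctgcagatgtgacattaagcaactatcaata
The Adam20 and Adam25 windows shared 284 identical bases over 304 aligned columns (93.4%), while Adam26b and Adam34l shared 70.8%. All other pairs of sperm and testis windows lay between 47.0 and 55.8%. Most of each window lies before the annotated start, so this likeness does not say how alike the transcripts are. Whether a probe measured more than 1 copy was not tested.

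**Figure D1:**
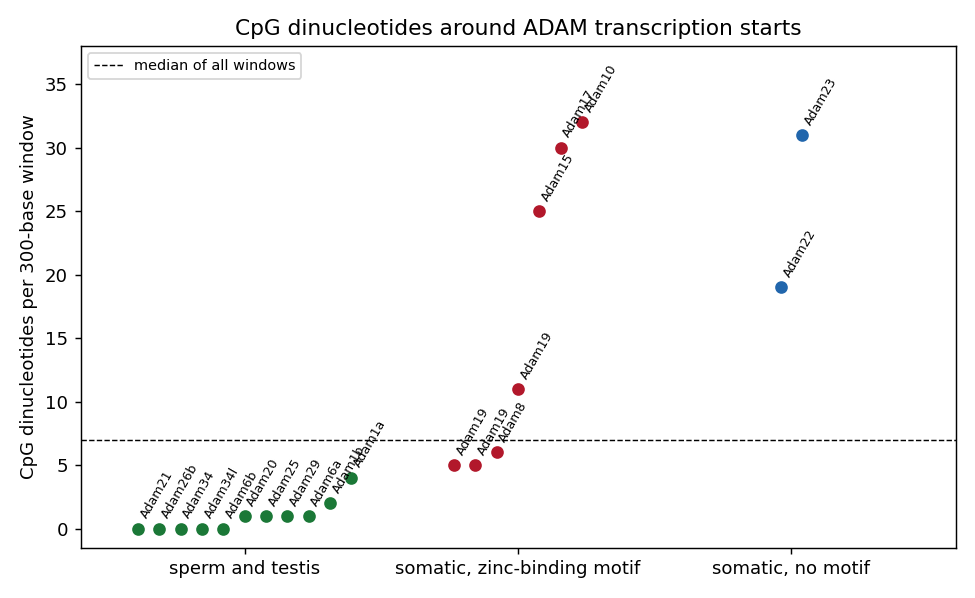
CG dinucleotides (CpG, y axis) in each 300-base promoter window of 18 ADAM genes, by group, with the median of all 32851 windows (7) as a dashed line. All 11 windows of sperm and testis genes lie at 4 or below, and those of Adam10, Adam15, Adam17, Adam22 and Adam23 at 19 or above.

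Between the fractions, the sperm and testis members were lower in the Sertoli fraction and most somatic members were higher. Of the 32 ADAM genes tested, limma called 29 in knockout mice (7 higher and 22 lower in the Sertoli fraction) and 30 in control mice (8 higher and 22 lower). Over all 25028 genes tested, 75% were called in knockout mice (37.9% higher and 37.1% lower) and 76.4% in control mice (39.8% higher and 36.5% lower). Of the 21 sperm and testis genes tested, 20 fell in each genotype, with a median log2 difference of -8.66 in knockout and -8.49 in control mice, against 0.09 and 0.21 over all genes. The exception was Adam26b, at -1.14 ± 0.52 (SE, limma adjusted p 0.0648) in knockout and -1.06 ± 0.52 (adjusted p 0.0827) in control mice. Most of the 21 passed the background filter only through the germ groups, since 4 of all 22 members were above background on all Sertoli arrays. A gene kept that way could hardly come out higher in the Sertoli fraction. The count of 20 and the medians are thus in part set by the filter. In RNA from mixed cells, fewer cells of a type and less RNA per cell cannot be told apart. Spermatocyte and round spermatid markers moved the same way: all 8 of each list fell in both genotypes, and 4 of each list were not well above background on any Sertoli fraction array (Sycp1, Spo11, Hormad1 and Piwil1 for spermatocytes, and Acrv1, Tssk2, Izumo1 and Catsper3 for round spermatids). The part of germ cell content in these differences was not tested.

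**Figure D2:**
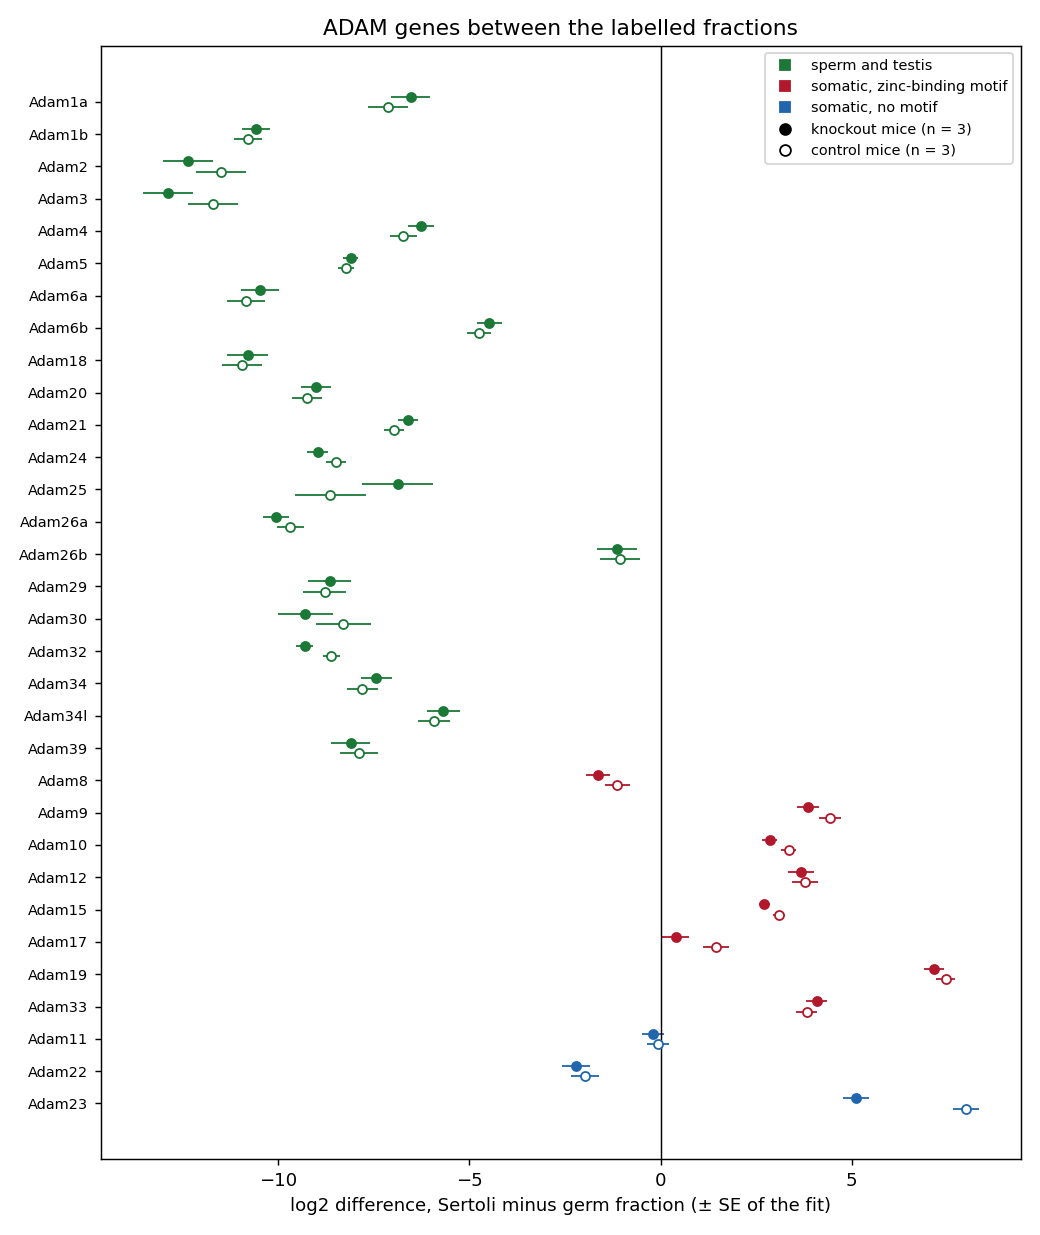
Log2 difference between the Sertoli and the germ cell fraction (x axis, ± SE of the limma fit) for the 32 ADAM genes tested, in knockout mice (filled) and control mice (open), n = 3 mice each. All 21 sperm and testis genes lie left of 0, and Adam23, Adam19, Adam9, Adam33, Adam12, Adam10, Adam15 and Adam17 lie right of 0 in both genotypes.

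Among sperm surface proteins, Adam3, Adam2, Adam18, Adam1b and Adam6a had the 5 lowest estimated differences in both genotypes. Many of their Sertoli values were not above background, so neither their order nor their place below other members is settled. Adam32, measured on every Sertoli array by its main probe, differed by -9.31 ± 0.23 in knockout and -8.61 ± 0.23 in control mice. Adam3, also called cyritestin and required in the mouse for sperm to enter the oviduct, lay at -7.85, -7.41 and -6.62 in knockout Sertoli fractions, against 5.73, 5.43 and 5.62 in knockout germ cells. In control mice it lay at -7.37, -6.38 and -4.07 in Sertoli fractions, against 6.04, 5.54 and 5.72 in germ cells. The fractions did not overlap, and the log2 differences were -12.88 ± 0.66 (limma adjusted p 1.28e-08) in knockout and -11.71 ± 0.66 (adjusted p 2.45e-08) in control mice. Only 1 of 3 knockout and 2 of 3 control Sertoli arrays measured Adam3 above background, so these sizes are uncertain, and with normexp background correction they were -10.81 and -9.09. Adam2, fertilin beta, lay at -8.95, -7.29 and -6.55 in knockout Sertoli fractions, against 4.76, 5.06 and 4.50 in knockout germ cells. None of those knockout Sertoli arrays was above background (limma adjusted p 1.53e-08 for the measured difference). Against a floor, the lowest signal of any probe that counted as above background on each array, Adam2 was about 2930-fold lower there. Such a fold is no strict lower limit, since some probes above the floor did not count as above background. In control mice Adam2 lay at -7.70, -7.03 and -5.28 in Sertoli fractions, against 5.08, 4.79 and 4.63 in germ cells, with only the Sertoli array of mouse 74 above background. Mouse 74 also gave the highest Sertoli fraction value of Adam3, and its Sertoli array had the lowest 75th percentile of all.

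Adam1b, the partner of Adam2 in the sperm surface fertilin complex, was not above background on any Sertoli array. Its levels were -8.90, -8.86 and -8.61 in knockout Sertoli fractions, against 1.87, 1.64 and 1.85 in knockout germ cells. Against the floor this was about 399-fold lower. In control mice they were -9.34, -8.93 and -7.60 in Sertoli fractions, against 2.04, 2.26 and 2.21 in germ cells, about 417-fold lower by the floor. Adam6a, which joins the sperm surface ADAM complexes in the mouse, lay at -6.93, -8.86 and -9.11 in knockout Sertoli fractions, against 2.03, 2.44 and 2.09 in knockout germ cells, about 513-fold lower by the floor. In control mice it lay at -8.53, -7.92 and -8.01 in Sertoli fractions, against 3.14, 2.55 and 2.41 in germ cells, about 600-fold lower by the floor. Fractions of neither genotype overlapped for either gene. Adam18, a sperm membrane protein, lay at -6.60, -7.87 and -6.81 in knockout Sertoli fractions, against 3.59, 3.83 and 3.72 in knockout germ cells (log2 difference -10.80 ± 0.53). In control mice Adam18 lay at -7.62, -7.80 and -5.58 in Sertoli fractions, against 4.35, 3.79 and 3.72 in germ cells (-10.95 ± 0.53), with 1 Sertoli array per genotype above background. With normexp the Adam18 differences were -8.8 in knockout and -7.45 in control mice.

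Most other sperm and testis members were near or under background in the Sertoli fraction. In all, 21 of the 22 were well above background on every germ array by at least 1 probe. On the Sertoli arrays, 10 of 22 were not above background in any knockout mouse and 9 of 22 in any control mouse. Adam20, Adam29, Adam34, Adam34l and Adam26a were among these in both genotypes. For Adam26a, a testis-expressed member of the group named testases, the main probe was about 234-fold lower in knockout and 262-fold lower in control mice by the floor. The second Adam26a probe was about 125-fold and 133-fold lower. Adam34l had the smallest such folds, about 14.7-fold lower in knockout and 18-fold lower in control mice. The 4 genes measured on every Sertoli array were Adam5, Adam6b, Adam26b and Adam32. Adam5, a sperm membrane protein, differed by -8.11 ± 0.20 in knockout and -8.23 ± 0.20 in control mice. Adam7, which in the mouse is made mainly in the epididymis and transferred to sperm, was the sperm and testis member left untested. It was above background on 2 of 3 knockout germ arrays (-3.60, -7.97 and -6.50), 1 of 3 control germ arrays (-7.68, -7.13 and -6.08) and no Sertoli array. The single value that stood well above the rest was that of knockout mouse 120.

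Somatic members with the zinc-binding motif behaved differently from one another. By the main probe of each gene, 6 of the 8 tested rose in the Sertoli fraction in knockout mice and 7 of 8 in control mice, with medians of 3.26 and 3.57. Adam19, or meltrin beta, a sheddase of neuregulin, lay at 3.89, 4.08 and 3.62 in knockout Sertoli fractions, against -3.39, -2.84 and -3.63 in knockout germ cells (log2 difference 7.15 ± 0.25, limma adjusted p 9.29e-10). In control mice it lay at 4.12, 4.58 and 3.85, against -3.11, -3.36 and -3.36 in germ cells (7.46 ± 0.25, adjusted p 6.41e-10). Every Sertoli array stood above every germ array. Adam9, or meltrin gamma, lay at 3.99, 4.37 and 4.14 in knockout Sertoli fractions, against 0.09, 0.72 and 0.13 in knockout germ cells, and at 4.41, 4.59 and 3.65 against 0.22, -0.35 and -0.49 in control mice. The differences were 3.85 ± 0.29 in knockout and 4.42 ± 0.29 in control mice.

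Adam33 lay at 0.46, 0.61 and 0.93 in knockout Sertoli fractions, against -3.12, -3.70 and -3.42 in knockout germ cells (4.08 ± 0.27). In control mice Adam33 lay at 0.10, 0.19 and 0.92, against -3.63, -3.56 and -3.08 in germ cells (3.82 ± 0.27). The fractions did not overlap in either genotype. Adam12, or meltrin alpha, is known from muscle and mesenchymal cells. Its main probe lay at -0.45, -0.23 and -0.76 in knockout Sertoli fractions, against -4.19, -4.62 and -3.61 in knockout germ cells (3.66 ± 0.34). In control mice that probe lay at -0.30, -0.47 and -0.08, against -4.68, -4.12 and -3.39 (3.78 ± 0.34). As with Adam33, every Sertoli array exceeded every germ array. Adam10 differed by 2.85 ± 0.19 and 3.35 ± 0.19 in knockout and control mice, and Adam15 by 2.71 ± 0.15 and 3.1 ± 0.15. Fibroblast and myoid markers were higher in the same arrays, as given above, and their part in these differences was not tested. Adam8, known from myeloid cells, fell instead, at -1.64 ± 0.32 in knockout and -1.13 ± 0.32 in control mice. Macrophage and leukocyte markers went both ways: of 11 tested, 1 rose (Csf1r) and 7 fell in knockout mice, and 3 rose (Csf1r, Lyz2 and Cd14) and 5 fell in control mice. Their mean level lay at -3.58 to -3.00 in knockout and -3.83 to -2.67 in control Sertoli fractions, against -1.88 to -1.12 in knockout and -2.61 to -1.95 in control germ fractions, and their part in the Adam8 difference was not tested. Adam28 was not above background on any of the 12 arrays and was not tested.

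Receptors without the motif differed from one another. Adam23 rose in the Sertoli fraction by 5.12 ± 0.34 (limma adjusted p 1.07e-07) in knockout and 7.98 ± 0.34 (adjusted p 2.93e-09) in control mice. Adam22, the LGI1 receptor of synapses, fell, at -2.21 ± 0.37 in knockout and -1.97 ± 0.37 in control mice, with adjusted p 0.000224 and 0.000517. Its main probe was above background on 2 of 3 Sertoli arrays of each genotype, so these sizes are uncertain. The second Adam22 probe was not above background on any of the 12 arrays and was not tested. For Adam11 the probes disagreed in the call. The main probe gave -0.19 ± 0.29 in knockout and -0.07 ± 0.29 in control mice and was not called. The second lay at -3.66, -3.87 and -3.81 in knockout Sertoli fractions, against -1.73, -1.95 and -2.04 in knockout germ cells (-1.87 ± 0.23, limma adjusted p 1.87e-05, all probes tested singly). In control mice it lay at -3.75, -4.49 and -3.65 in Sertoli fractions, against -2.13, -1.90 and -1.81 in germ cells (-2.02 ± 0.23, adjusted p 9.61e-06). The fractions did not overlap on this probe in either genotype, and both probes were above background on every array.

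Gene order did not follow the fraction pattern throughout. In the RefSeq annotation 14 of the 34 genes lie on chromosome 8, and Adam18, Adam3, Adam5, Adam32 and Adam9 follow one another there with 0 protein-coding genes between neighbours. Adam18, Adam3, Adam5 and Adam32 fell in the Sertoli fraction, while Adam9, the next gene in line, rose. A run of Adam24, Adam25, Adam20 and Adam39 and a run of Adam26b, Adam26a, Adam34l and Adam34 were also unbroken, and every gene of these runs except Adam26b fell in both genotypes. Adam1b and Adam1a adjoin on chromosome 5, and Adam6b and Adam6a on chromosome 12.

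Knockout against control germ cells gave 1 ADAM call, Adam23, which was higher in the knockout-labelled mice. Over all genes tested, 0.220% were called (0.216% higher and 0.00400% lower). Adam23 is an integrin-binding adhesion receptor best known from neurons. Its main probe lay at -2.86, -1.53 and -1.57 in knockout germ cells, against -4.67, -5.26 and -4.69 in control germ cells. All 3 knockout arrays stood above all 3 control arrays, each well above background, and mouse 120 was the lowest of the knockouts. The log2 difference was 2.89 ± 0.34 (limma adjusted p 0.00983), and within slides, each of which held 1 knockout and 1 control mouse, it was 1.80, 3.73 and 3.12. In the Sertoli fraction the same probe lay at 3.25, 3.31 and 2.83 in knockout mice, against 3.28, 3.12 and 2.93 in control mice. These groups overlapped and differed by 0.02 ± 0.34 (adjusted p 1). Knockout germ values lay between those of control germ cells and those of the Sertoli fractions.

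The second Adam23 probe lay at -8.13, -7.52 and -5.47 in knockout germ cells, against -9.43, -8.51 and -8.66 in control germ cells. Groups did not overlap here either, but only the array of mouse 72 was above background, and the difference of 1.83 ± 0.57 did not pass (limma adjusted p 0.355, all probes tested singly). The call on the main probe was lost without mouse 99 (2.99, adjusted p 0.0954), without mouse 73 (2.69, adjusted p 0.141), without mouse 86 (2.66, adjusted p 0.128) and without mouse 72 (2.68, adjusted p 0.136). With mouse 99 as the only control, a single animal and a fit chosen after seeing the data, the difference was 2.68.

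**Figure D3:**
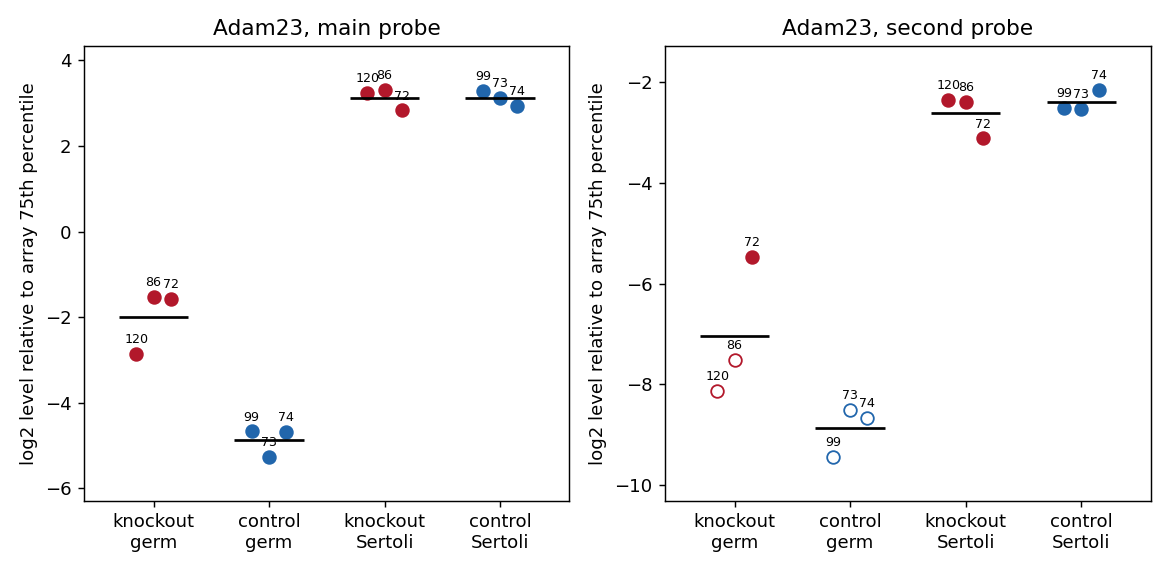
Log2 level of both Adam23 probes relative to the array's 75th percentile (y axis) on each array, labelled by mouse, with the group mean as a line and open symbols for arrays not well above background. On the main probe the knockout germ arrays lie between -2.86 and -1.53 and the control germ arrays between -5.26 and -4.67, while all Sertoli arrays lie between 2.83 and 3.31.

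Markers of somatic cells also stood higher in the knockout germ arrays. Fibroblast marker levels were given above, and 1 of those 6 genes, Pdgfra, rose (1.25 ± 0.19, limma adjusted p 0.0359, and 1.18 with adjusted p 0.257 without mouse 99), with a list median of 0.87 against -0.04 over all genes. Median differences were 0.80 for myoid markers (5 of 5 positive), 0.51 for Sertoli cell markers (8 of 9), 1.34 for Leydig cell markers (5 of 5), 0.76 for macrophage and leukocyte markers (8 of 11) and 0.23 for endothelial markers (5 of 5), with no gene of these lists called. The part of such cells in the Adam23 difference was not tested.

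Next in order of p came Adam10 and Adam21, and neither passed. Adam10 lay at 0.01, 0.07 and 0.23 in knockout germ cells, against -0.48, -0.29 and -0.64 in control germ cells, without overlap (0.57 ± 0.19, limma adjusted p 0.387). Adam21, a testis-expressed metalloprotease, lay at 0.58, 1.03 and 0.64 in knockout germ cells, against 1.94, 1.12 and 1.05 in control germ cells. Its groups did not overlap, by a small margin, and the difference was -0.62 ± 0.26 (adjusted p 0.602). The control array of mouse 99 was the highest. In all, the arrays of 6 of the 32 ADAM genes did not overlap between knockout and control germ cells, against 15.7% of all genes tested. The other 4 were Adam1b and Adam25, lower in knockout, and Adam23 and Adam15, higher.

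Sperm and testis members gave 0 calls in germ cells, and 1 of 21 had an unadjusted p under 0.05, against 7.34% of all genes tested. All 21 estimates lay below 0, from -0.68 (Adam4) to -0.02 (Adam1a), with a median of -0.41 against -0.04 over all genes. That count depended on the processing. It stayed at 21 with normexp, but was 19 with quantile normalization and with the authors' table, and 18 (median -0.27) with 8-month mice only. Within slides 18, 15 and 19 of the 21 were lower in the knockout mouse, with medians of -0.76, -0.12 and -0.35. The median was -0.29 without mouse 99 and -0.73 with that mouse as the only control. The members share the same arrays and do not count as separate observations. Round spermatid markers had a median of -0.32 (1 of 8 positive), elongating spermatid markers -0.16 (1 of 8) and spermatocyte markers -0.07 (2 of 8), with 0 calls in each list, and their part in the ADAM values was not tested.

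The order of the mice within a group was shared by many of these members. Control mouse 99 gave the highest of the 3 control values for 17 of 21 members, and knockout mouse 86 the highest of the 3 knockout values for 13 of 21. Over all genes tested those mice were highest for 44.4% and 40.7%. The 13 members highest in both were Adam2, Adam4, Adam6a, Adam18, Adam20, Adam21, Adam24, Adam25, Adam26a, Adam29, Adam34, Adam34l and Adam39, so the testase runs of chromosome 8 were among them except for Adam26b. In 4 members, Adam1a, Adam1b, Adam6b and Adam26b, the same mice were both the lowest. Mouse 99 was the lowest control for 4 of 21 members and mouse 86 the lowest knockout for 6 of 21. Over all genes tested those mice were lowest for 38.4% and 38.9%, so the low order is not particular to these members. Mice 99 and 86 were picked as those most often highest among these members, so the count of 13 is drawn from the values that set the pair. The shares of all genes highest or lowest in both mice were not computed. Adam1a, a fertilin alpha that stays in the endoplasmic reticulum in the mouse, lay at 1.02, -0.19 and 0.74 in knockout germ cells, against -0.30, 0.78 and 1.15 in control germ cells. Those groups overlapped (-0.02 ± 0.52).

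**Figure D4:**
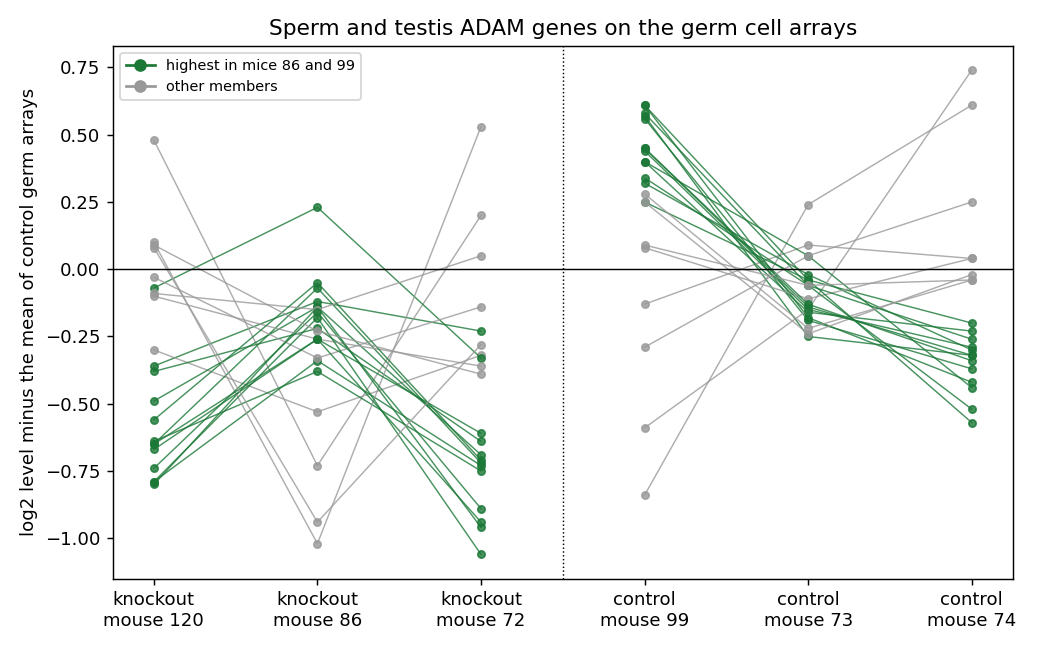
Levels of the 21 sperm and testis ADAM genes tested on each germ cell array, as log2 minus the mean of the control germ arrays (y axis), with 1 line per gene within knockout and within control mice. The 13 genes drawn in green are highest in knockout mouse 86 and in control mouse 99, and other members do not follow this order.

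Probes of 3 genes disagreed in direction in germ cells. The main Adam3 probe, whose germ values are given above, differed by -0.17 ± 0.66. The second Adam3 probe lay at 2.19, 0.39 and 1.93 in knockout germ cells, against -0.36, 1.21 and 2.17 in control germ cells (0.50 ± 0.65). On it mice 86 and 99 were the lowest of their groups, the groups overlapped, and neither value passed. Adam32 likewise overlapped on both probes. Its main probe lay at 5.44, 5.38 and 5.58 in knockout germ cells, against 5.78, 5.29 and 5.51 in control germ cells (-0.06 ± 0.23). The second Adam32 probe lay at 4.07, 3.55 and 3.63 in knockout germ cells, against 3.33, 4.04 and 3.84 in control germ cells (0.01 ± 0.91). For Adam11 the main probe lay at -1.59, -2.02 and -1.51 in knockout germ cells, against -1.74, -1.84 and -1.32 in control germ cells (-0.07 ± 0.29), and the second probe gave 0.04 ± 0.23. Among somatic members with the motif 6 of 8 estimates lay above 0 in germ cells, from 0.01 (Adam33) to 0.57 (Adam10), with a median of 0.25 and 0 calls. Adam9 gave 0.52 ± 0.29 (limma adjusted p 0.862) and Adam17 0.47 ± 0.35 (adjusted p 0.982).

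**Figure D5:**
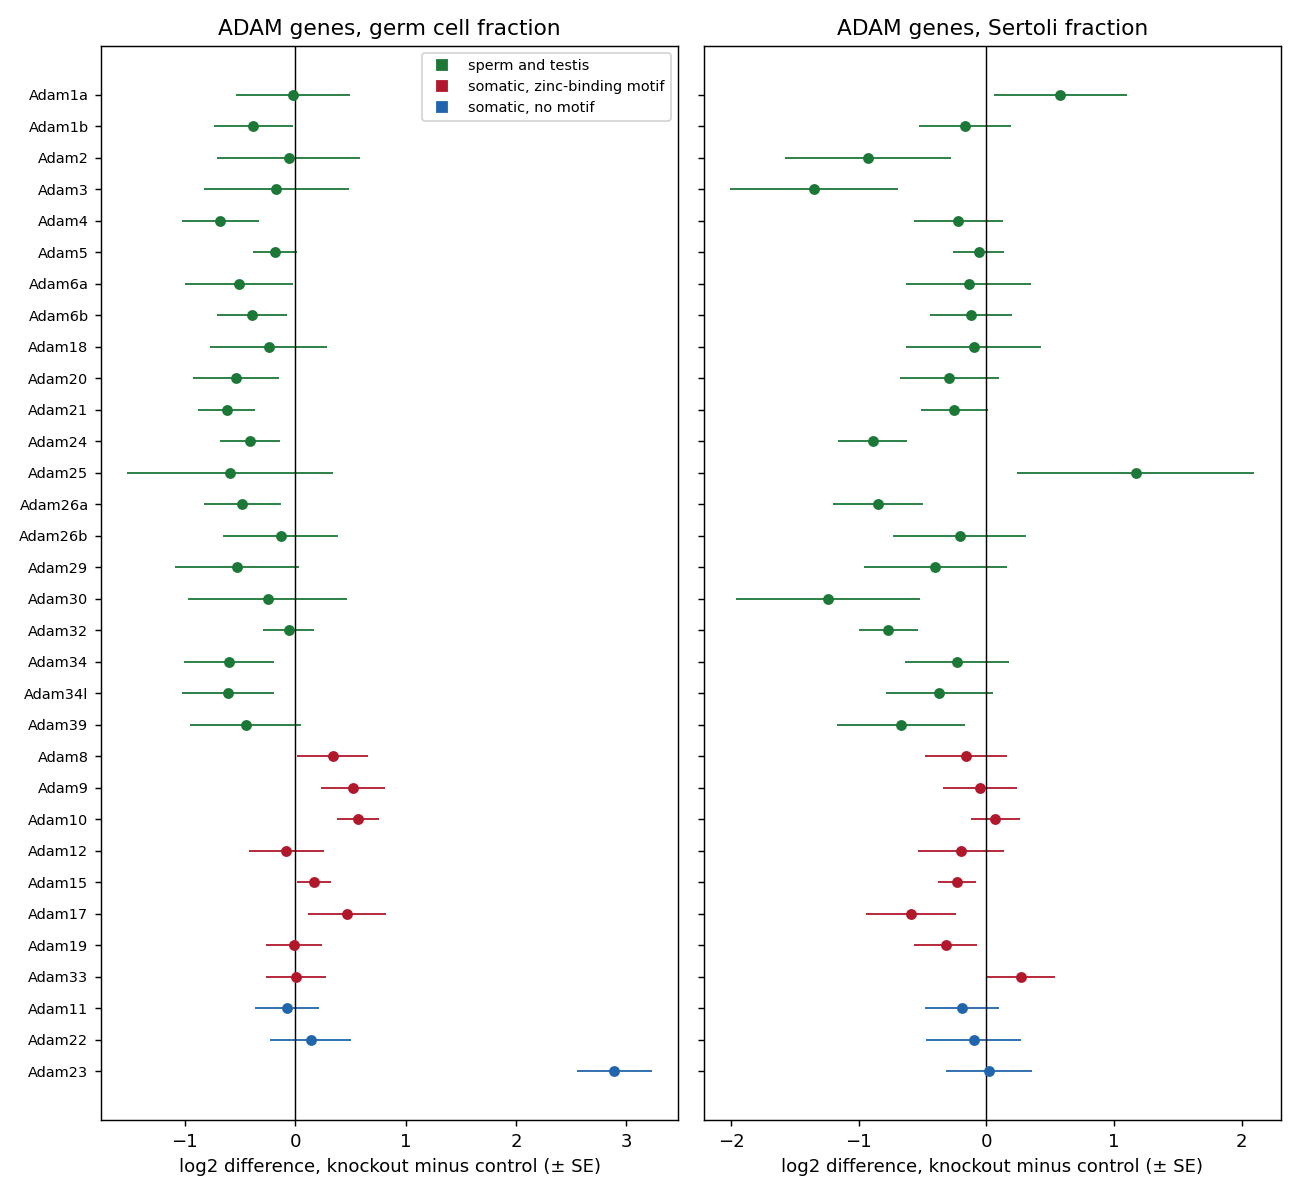
Log2 difference between knockout and control mice (x axis, ± SE of the limma fit, n = 3 mice each) for the 32 ADAM genes tested, in the germ cell fraction (left) and the Sertoli fraction (right), coloured by group. Adam23 in germ cells, at 2.89, is the only point past the threshold, and the 21 sperm and testis genes lie left of 0 in germ cells.

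Knockout against control Sertoli fractions gave 0 ADAM calls by limma, with an unadjusted p under 0.05 for 3 of 32, and 0% of all genes were called, with an unadjusted p under 0.05 for 756 of 25028. The 3 smallest p belonged to Adam32, Adam24 and Adam26a. By its main probe Adam32, a sperm-expressed member, lay at -3.97, -3.95 and -3.62 in knockout mice, against -3.56, -2.96 and -2.72 in control mice, without overlap (-0.77 ± 0.23, limma adjusted p 1). On the second Adam32 probe the groups overlapped (-1.59 ± 0.91), with 0 of 3 knockout and 1 of 3 control arrays above background. Adam24, or testase 1, lay at -7.07, -6.57 and -6.32 in knockout mice, against -5.43, -6.21 and -5.64 in control mice, also without overlap (-0.89 ± 0.27, adjusted p 1). Only 1 of 3 knockout and 2 of 3 control arrays were above background for Adam24. Adam26a lay at -9.30, -8.78 and -9.04 in knockout mice, against -7.87, -8.87 and -7.83 in control mice. None of these arrays was above background for it, so that its difference has no measured size. In all, 4 of the 32 genes did not overlap (Adam15, Adam17, Adam24 and Adam32), against 6.68% of all genes tested. The sperm and testis members had a median of -0.25 with 19 of 21 below 0, against a median of -0.10 over all genes, and 8 of all 22 members were not above background on any Sertoli array. Without mouse 74 the median was -0.05 (11 of 21 below 0), and on the slide that held mouse 74 all 21 were lower in the knockout mouse, with a median of -1.10. With mouse 99 as the only control the median was 0.14, with 7 of 21 below 0. Elongating spermatid markers had a median of -1.26 (0 of 8 positive) in the same comparison, and their part in it was not tested. Probes of Adam11, Adam12, Adam23 and Adam26a disagreed in direction in this comparison and none passed. The second Adam23 probe lay at -2.36, -2.40 and -3.12 in knockout mice, against -2.51, -2.53 and -2.16 in control mice (-0.22 ± 0.57), where the main probe differed by 0.02. Those groups overlapped. The main Adam11 probe lay at -1.89, -2.06 and -1.74 in knockout mice, against -1.97, -2.13 and -1.01 in control mice (-0.19). The second lay at -3.66, -3.87 and -3.81 in knockout mice, against -3.75, -4.49 and -3.65 in control mice (0.18). On both the groups overlapped. The main Adam12 probe, whose values are given above, differed by -0.20, and the second lay at -3.09, -2.77 and -2.56 in knockout mice, against -2.66, -3.62 and -2.19 in control mice (0.02). The second Adam26a probe, like the first, was not above background on any of these arrays, at -7.72, -7.87 and -7.55 in knockout mice, against -7.96, -8.97 and -6.82 in control mice.

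Whether the knockout effect differed by fraction was tested as an interaction term (Sertoli minus germ), which was called for 0 of the 32 ADAM genes, against 0.00799% of all genes. An unadjusted p under 0.05 was given by 1 of the 32, against 4.57% of all genes. For Adam23 the effect in the Sertoli fraction was smaller than that in germ cells (interaction term -2.86 ± 0.48, limma adjusted p 0.216). The Adam23 effect in germ cells is thus not shown to differ from that in the Sertoli fraction at the threshold used. Adam32 gave -0.71 ± 0.33 and Adam17 -1.06 ± 0.50, both at adjusted p 0.999. Adam17 lay at -5.59, -5.32 and -5.44 in knockout Sertoli fractions, against -5.30, -4.88 and -4.40 in control Sertoli fractions, and at -5.02, -6.35 and -6.17 in knockout germ cells, against -6.68, -6.04 and -6.21 in control germ cells. The Sertoli groups did not overlap and the germ groups did. In the fraction comparison Adam17 was called in control mice (1.45 ± 0.35, adjusted p 0.00293) and not in knockout mice (0.39 ± 0.35, adjusted p 0.329). That contrast rests on the main probe. The second Adam17 probe, above background on 2 of 3 knockout and 3 of 3 control Sertoli arrays and on 1 of 3 germ arrays of each genotype, passed in both (1.32 ± 0.36, adjusted p 0.00611 in knockout and 2.25 ± 0.36, adjusted p 0.000151 in control mice, all probes tested singly). For the interaction term the probes of Adam5, Adam11, Adam12 and Adam26a disagreed in direction and none passed. The main Adam5 probe lay at -2.88, -2.87 and -3.24 in knockout Sertoli fractions, against -2.70, -2.89 and -3.22 in control Sertoli fractions, and at 5.38, 5.06 and 4.90 in knockout germ cells, against 5.38, 5.23 and 5.25 in control germ cells (0.12 ± 0.28). The second Adam5 probe lay at -2.87, -3.09 and -3.10 in knockout Sertoli fractions, against -2.93, -2.96 and -2.72 in control Sertoli fractions, and at 4.78, 4.53 and 4.67 in knockout germ cells, against 4.89, 4.52 and 4.69 in control germ cells (-0.11 ± 0.24). In the Sertoli fraction and in germ cells the groups overlapped on both probes.

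Genes that work with the ADAM proteins were read beside them. Of 13 maturation factors of sperm ADAM proteins, such as chaperones and testis proteases, 0 rose and 0 fell in knockout germ cells. Of their estimates 1 of 13 lay above 0, with a median of -0.21 against -0.04 over all genes. The smallest p belonged to Calr3, a testis calreticulin needed for Adam3 maturation in the mouse (-0.61 ± 0.24, limma adjusted p 0.552), then Pdilt, a testis relative of protein disulfide isomerase (-0.45 ± 0.22, adjusted p 0.758), and Prss37 (-0.73 ± 0.43, adjusted p 0.877). In the Sertoli fractions, where 0 of the 13 passed, Pdilt gave -1.41 ± 0.22 (adjusted p 0.281). Between the fractions 12 of 13 fell and 1 rose in each genotype, with Pdilt at -12.47 ± 0.22 in knockout and -11.50 ± 0.22 in control mice. The medians were -7.53 and -7.61, and 37.1% and 36.5% of all genes fell.

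Of 17 sheddase regulators tested, 1 rose in knockout germ cells, Timp1, a secreted inhibitor of metalloproteases that inhibits ADAM10 (4.05 ± 0.44, limma adjusted p 0.00721). Without mouse 99 it differed by 4.1 (adjusted p 0.0845), and the call was also lost without mouse 73, 86 or 72. The list had a median of 0.23. Over all genes tested the median in germ cells was -0.04, and 0.216% were called higher. Of 33 sheddase substrates tested, 1 rose, Trem2, a receptor of macrophages (2.81 ± 0.36, adjusted p 0.0154), with 27 of 33 estimates above 0 and a median of 0.51. Without mouse 99 Trem2 differed by 2.75 (adjusted p 0.146), and leaving out mouse 73, 86 or 72 ended its call too. Macrophage and leukocyte marker levels in the knockout and control germ arrays are given above, and their part in these values was not tested. The 4 LGI ligands gave 0 calls in germ cells and a median of 0.06. In knockout against control Sertoli fractions 0 regulators, 0 substrates and 0 LGI genes were called. Between the fractions 11 of 17 regulators rose and 2 fell in each genotype. In either direction 76.5% were called, near the 75% and 76.4% of all genes called in knockout and control mice. By direction the list was not near all genes, of which 37.9% and 39.8% were called higher and 37.1% and 36.5% lower. The regulators that rose included Timp3, an inhibitor of ADAM17, which was higher by 5.52 ± 0.14 in knockout and 6.08 ± 0.14 in control mice. Among substrates 21 rose and 4 fell in knockout mice, and 23 rose and 5 fell in control mice, 75.8% and 84.8% of the 33. Of the LGI genes 3 rose and 1, Lgi1, fell in each genotype, at -2.58 ± 0.37 in knockout and -2.84 ± 0.37 in control mice.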

How the data were processed

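Per the labels' protocols, testes were removed, germ and Sertoli cells isolated, RNA extracted with Trizol and Cy3-labelled. Per the file headers, Agilent Feature Extraction 10.7.3.1 read the scans, and the deposited intensity, the processed signal, was background-subtracted and detrended by that software. A deposited table by the authors holds log2 values; its column medians are all 8.29 and its probe order on each array is that of the processed signal (Spearman's rho 1). The submitters' processing notes name limma. How that table was scaled is not given in the sources used here.

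Control spots (1377 of 44397) and outlier spots were left out, spots of a probe averaged, and each array's 75th percentile of log2 processed signal subtracted. RefSeq (GRCm38.p6) named 26055 of 39429 probes by accession. A probe was kept if all 3 arrays of some group had it well above background, and the probe with the highest mean over 12 arrays stood for its gene (25028 genes, 16591 with a symbol, 32 ADAM). Groups follow the source names. limma 3.58.1 (R 4.3.3) fitted 4 group means over the 12 arrays, with Benjamini-Hochberg adjustment over all genes and a threshold of 0.05. The fit was tested on simulated data with independent noise for each gene. That simulation held no shared array, mouse or slide effects, so it does not cover them. A fold by the floor divides the brighter mean by the lowest signal of any probe that counted as above background on each dim array, or by the probe itself where that was higher. That floor is not the detection limit of a single probe. The second Adam17 probe, at -5.93 on the knockout Sertoli array of mouse 72, did not count as above background, though the floor there was -6.87.

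Mouse numbers pair the arrays across fractions, since 1 animal gave both. Deviations from the group means correlated between fractions with r between -0.161 and 0.463. Knockout and control mice are different animals, nothing says whether they were litter mates, and the number of mice limits the precision. Alternatives were quantile normalization, normexp background correction (offset 50, on the median signal and median background, since no mean signal column was given), the authors' table, no filter, slide or mouse as a block, leaving out each mouse, every probe singly, 8-month mice only and only the arrays compared. The members and lists were chosen with earlier results of these data known. Per-array values were given by rule for ADAM genes past a knockout threshold, the 3 smallest p of each knockout contrast, the 5 largest fraction differences in each direction and genes with disagreeing probes. Of other lists, members past a knockout threshold or the 3 with the smallest p could be named. Timp3 and Lgi1 follow that rule in the fraction comparison.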

Additional observations from a re-analysis of the deposited data

Results flagged for a closer look

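Adam15, or metargidin, was the ADAM gene whose knockout and control arrays separated in opposite directions in the 2 fractions. In germ cells it lay at 2.10, 2.14 and 2.18 in knockout mice, against 2.01, 2.05 and 1.87 in control mice, all 3 above. In the Sertoli fraction it lay at 4.88, 4.81 and 4.85 in knockout mice, against 4.91, 5.11 and 5.20 in control mice, all 3 below. Both separations were by small margins. The knockout differences were 0.17 ± 0.15 (limma unadjusted p 0.283) in germ cells and -0.23 ± 0.15 (unadjusted p 0.155) in the Sertoli fraction. The interaction term was -0.39 ± 0.21 (limma adjusted p 0.999) and did not pass. The share of all genes that separate in opposite directions was not computed.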

How the results depend on the processing

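Of the counts of ADAM calls, that between knockout and control germ cells was the one that moved by over 1.5 times. The count of ADAM genes called there was 0 with normexp, with 8-month mice only, with only the germ arrays in the fit (fewer arrays for the spread) and without the control mice titled het (chosen after seeing the data), and ranged from 0 to 1 when 1 mouse was left out. The Adam23 difference ranged from 2.41 to 3.43 over the 16 alternatives, with limma adjusted p from 0.00358 to 0.305, and kept its sign. It was 2.41 (adjusted p 0.0916) with normexp, 3.43 (0.0526) with 8-month mice and 2.89 (0.305) with only the germ arrays. With normexp 28 ADAM genes were called between fractions in knockout and 27 in control mice, and all 5 sperm genes with the lowest estimates kept their calls with smaller differences: -10.81 and -9.09 for Adam3, -9.97 and -8.3 for Adam2, -8.8 and -7.45 for Adam18, -7.25 and -5.92 for Adam1b, and -7.6 and -6.37 for Adam6a. With every probe tested singly 31 were called in each genotype. The cause of the changes with normexp was not tested. Timp1 passed in 8 of 16 alternatives (adjusted p 0.00331 to 0.188), Trem2 in 8 (0.00814 to 0.693) and Pdgfra in 4 (0.029 to 0.602), all with positive differences. Of the fits that left out 1 mouse, only that without mouse 120 kept the Pdgfra call. The interaction estimate of Adam32, which never passed, turned to 0.03 without the mice titled het. Leaving out 1 mouse gave 29 to 30 calls between fractions in knockout and 29 to 31 in control mice. With mouse number as a replicate block, pairing the fractions of a mouse (consensus correlation 0.126), calls were 1 in germ cells (Adam23, adjusted p 0.0102), 0 in the Sertoli fraction, and 30 in knockout and 30 in control mice between fractions. The median of the sperm and testis members in the Sertoli fractions was -1.71 with normexp and -0.04 with quantile normalization, and the cause was not tested.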
